A study of Mus musculus with 4 samples.

Results

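The genes of the CCN family, of the platelet-derived growth factors (PDGF) and of the angiogenic factors Angpt1 and Vegfa were followed in LSK cells that differ in the amount of c-Myc protein. LSK cells are the lineage-negative, c-Kit-positive and Sca1-positive fraction of bone marrow, which holds the blood stem cells and multipotent progenitors. The 10 genes are Ccn1, Ccn2, Ccn3, Ccn4, Ccn5, Pdgfa, Pdgfb, Pdgfc, Angpt1 and Vegfa, of 18193 genes that have at least 1 probe set of their own on the array. All probe sets annotated to one of the 10 and to no other gene were taken, which gave 20 of 45037. The genes were selected on their Hi and Lo log2 intensities, the values described here, so the comparison of the groups is given for them as a description and with no test.

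Hi cells were LSK cells sorted from femoral marrow for a high level of a fusion of c-Myc with the fluorescent protein eGFP, and the Lo cells that they were set against were LSK cells sorted for a low level of it. Each group has 2 arrays, R1 and R2, and the mice of both groups are labelled wild-type, B6/129. Both groups thus carried the fusion protein. The labels give neither the age of the mice nor whether R1 and R2 came from separate mice, so the spread between arrays may be technical. RNA (5 ng per sample) was amplified and hybridised to Affymetrix mouse arrays, and values are log2 intensities after RMA, a method that makes the distributions of the arrays alike. Intensities of different probe sets are not on a common scale. They were compared to pick the brightest probe sets and genes, and were summed over lists of markers. A probe set was called dim on an array when it did not exceed the brightest control probe set for a bacterial transcript that was not added, a limit of 4.74 to 4.87 on the log2 scale over the 4 arrays.

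CCN proteins are secreted proteins of the extracellular matrix built from modules that bind growth factors, integrins and heparan sulfate. Ccn1 and Ccn2 are known as targets of the Hippo pathway factors YAP and TEAD and as early response genes, and CCN3 is known in human cord blood as a factor that supports stem and progenitor cells. PDGF proteins are dimers that signal through 2 receptor kinases, Pdgfra and Pdgfrb. Angiopoietin-1 is the activating ligand of Tie2, the product of Tek, a receptor known in marrow for its part in stem cell quiescence, and VEGF-A acts on blood vessels through Flt1 and Kdr.

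Ccn3 and Pdgfc were bright in Lo and at or near the dim limit in Hi, while the 7 probe sets of Angpt1, Pdgfa, Pdgfb and Vegfa over the limit on at least 2 arrays differed by -0.41 to 0.48 on the log2 scale. Ccn1, Ccn2, Ccn4 and Ccn5 were dim on all 4 arrays. Of the 20 probe sets, 6 had both Hi arrays below both Lo arrays, where 22% of all probe sets did, and 5 had both Hi arrays above both Lo arrays, where 29.3% did. The other 9 overlapped. There were 11 probe sets over the dim limit on at least 2 arrays, of 6 genes, and the 4 of Ccn3 and Pdgfc passed this limit mainly through their Lo arrays. Of these 11, 6 had Hi below Lo, with the 4 of Ccn3 and Pdgfc among them, 2 had Hi above Lo and 3 overlapped. The remaining 9 probe sets were dim on all 4 arrays, with intensities of 2.15 to 4.43 and differences, Hi minus Lo, of -0.30 to 0.31 on the log2 scale. Of these 9, 3 had Hi above Lo and 6 overlapped, though values under the limit give no order of the groups. The shares over all probe sets include dim ones too, and shares among only the probe sets over the limit were not counted. The split of the 11 is thus given with no matching share. Over the 10 genes, each by its probe set with the highest mean, 3 differences were above 0 and 7 below, where 53.6% of all genes were above and 46.4% below, and the median was -0.28 against 0.03 over all genes. Without Lo R1 that median was 0.04. These signs and the median include Ccn1, Ccn2, Ccn4 and Ccn5, which were dim on all 4 arrays.

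**Figure D1:**
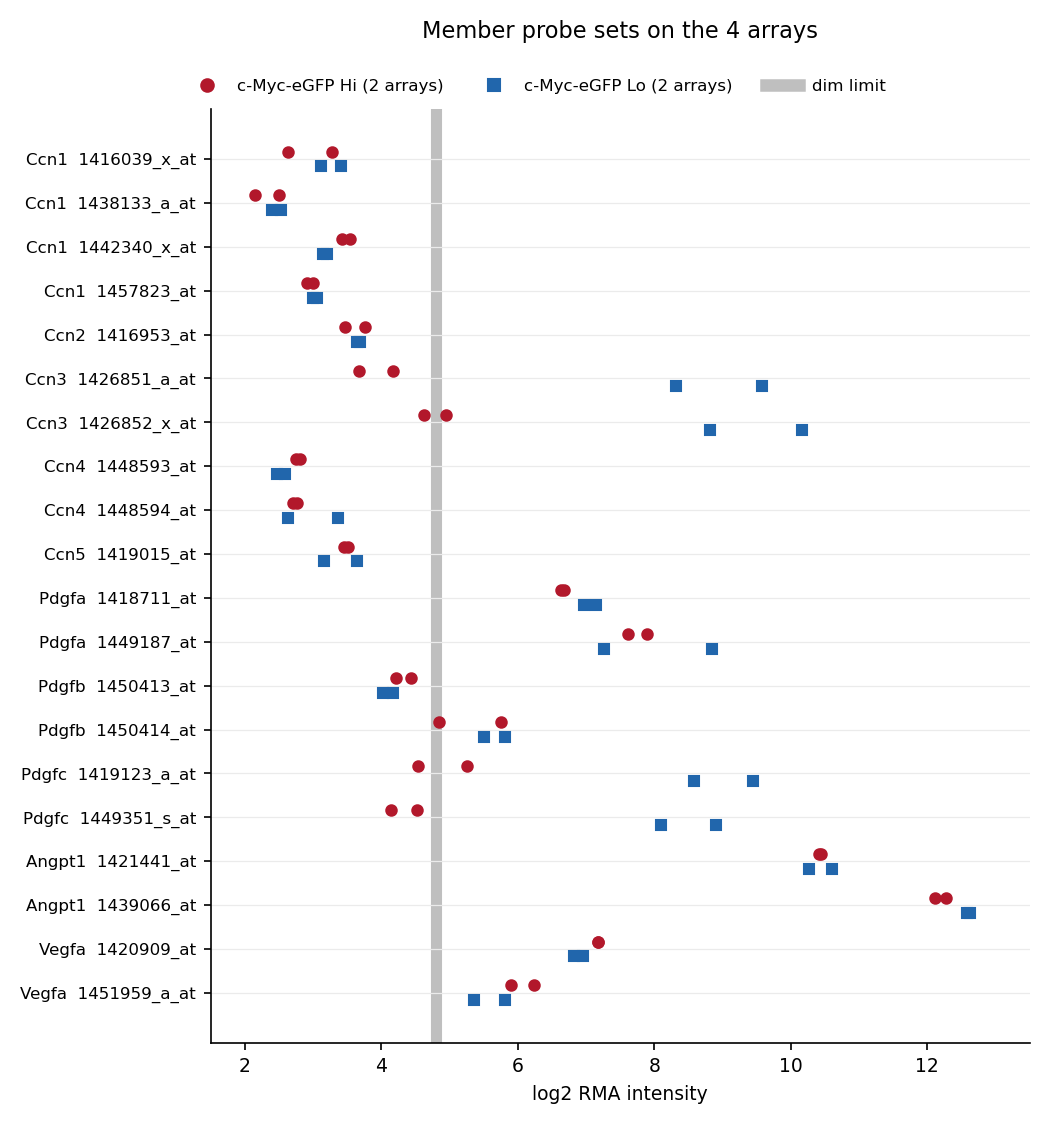
Log2 RMA intensity of the 20 member probe sets on the 2 Hi arrays (circles) and the 2 Lo arrays (squares), with the range of the dim limit as a grey band. The 2 probe sets of Ccn3 and the 2 of Pdgfc lie at 3.67 to 5.26 in Hi and at 8.10 to 10.17 in Lo. For the other genes the group means differ by -0.41 to 0.48, and the 2 Lo arrays of Pdgfa 1449187_at lie 1.58 apart.

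Of the 10 genes, Ccn3, Ccn4, Pdgfb and Angpt1 lie on chromosome 15, Ccn1 and Pdgfc on chromosome 3, and Ccn2, Ccn5, Pdgfa and Vegfa on chromosomes 10, 2, 5 and 17. Ccn3 (formerly Nov, chromosome 15, 54745910 to 54753762 in GRCm38.p6) had the largest difference of the 10 genes. Its probe set 1426852_x_at, with the higher mean, had 4.63 and 4.95 in Hi, and 10.17 and 8.82 in Lo. The groups were 3.87 apart at their nearest arrays, and the 2 Lo arrays were 1.35 apart. The measured difference was -4.70 ± 0.51 (SE) on the log2 scale, and the Hi mean was 4.79 ± 0.23, against a Lo mean of 9.49 ± 0.95 (SD over 2 arrays each). Only 1 of the 2 Hi arrays exceeded the dim limit for this probe set, and setting the other to that limit leaves Ccn3 at least 24-fold lower in Hi. The second probe set, 1426851_a_at, had 3.67 and 4.18 in Hi, dim on both arrays, and 9.58 and 8.32 in Lo, which makes it at least 16.9-fold lower in Hi. For this bound both Hi arrays were set to the limit. Among 18193 genes the measured difference of Ccn3 was number 2 from the lowest, and 9 genes had a difference at or under -4, while 16503 lay between -1 and 1. These ranks rest on measured values that are partly under the limit, and they describe how the genes were picked and test nothing. Between bulk samples, fewer cells with a transcript and less of it per cell cannot be told apart.

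The other 4 CCN genes gave no measurable level. Ccn1 (formerly Cyr61, which promotes cell adhesion and vessel growth) had 4 probe sets with 2.15 to 3.55 in Hi and 2.40 to 3.41 in Lo. One of them, 1442340_x_at, differed by 0.31 ± 0.14 (SE) and the other 3 by -0.30 to -0.07, all under the dim limit, so no fold is given. Ccn2 (formerly Ctgf, connective tissue growth factor) had 3.47 and 3.76 in Hi, and 3.69 and 3.65 in Lo. Ccn4 (formerly Wisp1, a target of Wnt signalling) had 2.71 to 2.81 in Hi and 2.47 to 3.37 in Lo over its 2 probe sets, and Ccn5 (formerly Wisp2, which lacks the C-terminal module of its relatives) had 3.46 and 3.52 in Hi, and 3.65 and 3.16 in Lo. Of the CCN genes, Ccn3 thus was the one with a level above the dim limit, and it was so on both Lo arrays. For Ccn1 and Ccn2, as for the others, values under the limit give no order of the groups.

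Pdgfc encodes a PDGF subunit that is released with a CUB domain, which must be cut off before it can activate its receptor. It lies on chromosome 3, 81036416 to 81214040. Its probe set 1419123_a_at had 4.54 and 5.26 in Hi, and 9.44 and 8.58 in Lo. The nearest arrays of the 2 groups were 3.31 apart, and the arrays within a group at most 0.87. The measured difference was -4.11 ± 0.42 (SE), and the Hi mean was 4.90 ± 0.51, against a Lo mean of 9.01 ± 0.61 (SD over 2 arrays each). For this probe set too, 1 of the 2 Hi arrays exceeded the dim limit, and setting the other to that limit leaves Pdgfc at least 15.4-fold lower in Hi. The second probe set, 1449351_s_at, had 4.15 and 4.52 in Hi, and 8.90 and 8.10 in Lo. It was dim on both Hi arrays and at least 12.4-fold lower in Hi. By the measured difference Pdgfc was number 8 from the lowest among all genes.

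Pdgfa and Pdgfb, the classical PDGF chains, did not share this pattern. For Pdgfa, 1449187_at had 7.90 and 7.61 in Hi, and 8.85 and 7.27 in Lo, so the 2 Lo arrays enclosed both Hi arrays. Its difference of -0.30 ± 0.59 (SE) was smaller than the spread of the Lo arrays, and it was 0.49 without Lo R1 and -1.10 without Lo R2. The other Pdgfa probe set, 1418711_at, had 6.68 and 6.63 in Hi, and 7.15 and 6.97 in Lo, a difference of -0.40 ± 0.14 with groups that did not overlap. Pdgfb, the chain best known for recruiting pericytes to vessels, had 4.85 and 5.76 in Hi, and 5.51 and 5.82 in Lo by 1450414_at. The groups overlapped, with a difference of -0.36 ± 0.36, or 0.09 without Hi R1, which was dim for this probe set. Its second probe set was dim on all 4 arrays.

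**Figure D2:**
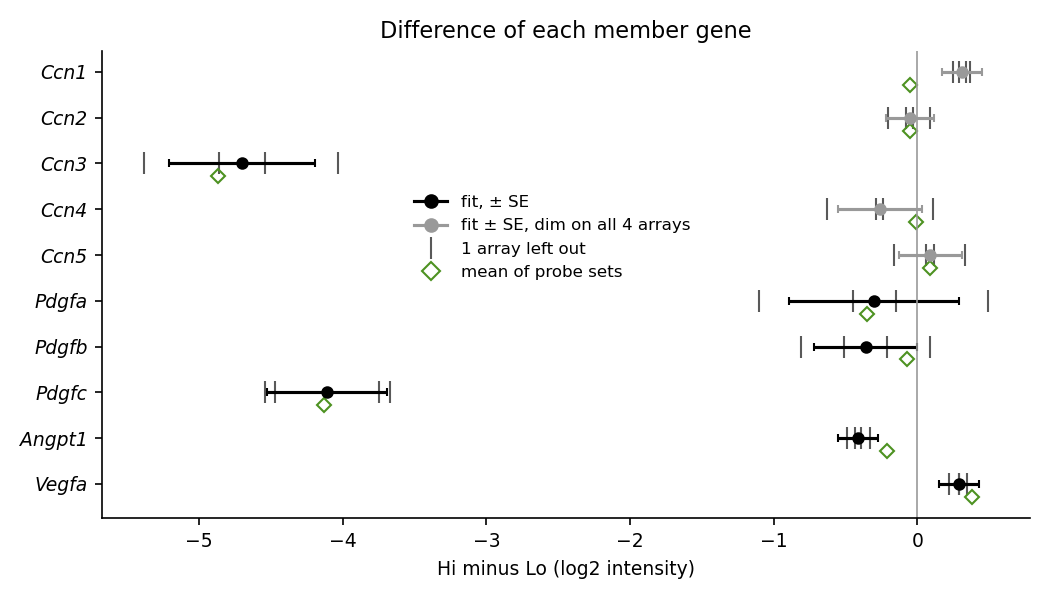
Difference of Hi minus Lo in log2 intensity for the 10 genes, each by its probe set with the highest mean (circle, ± SE of the fit, grey where dim on all 4 arrays), with the value after leaving out each array in turn (bars) and the average over the gene's probe sets (diamonds). Ccn3 stays between -5.38 and -4.03 and Pdgfc between -4.54 and -3.67 with 1 array left out, while the range of Pdgfa runs from -1.10 to 0.49.

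The RefSeq sequences before the transcription start held 4 of the 10 genes (Ccn1, Pdgfa, Pdgfc and Vegfa, 6 windows in GRCm38.p6). The 250 bases before the start are shown for Pdgfc, which was far lower in Hi, and for Vegfa, which was slightly higher, at chr3:81036166-81036415 on the plus strand and chr17:46032378-46032627 on the minus strand. Both strands were searched for CACGTG (the E-box bound by Myc and Max), GGGCGG (the GC box bound by Sp1), TATAAA (the TATA box) and GGAATG (bound by TEAD factors), and the matches stand in capitals.
Pdgfc: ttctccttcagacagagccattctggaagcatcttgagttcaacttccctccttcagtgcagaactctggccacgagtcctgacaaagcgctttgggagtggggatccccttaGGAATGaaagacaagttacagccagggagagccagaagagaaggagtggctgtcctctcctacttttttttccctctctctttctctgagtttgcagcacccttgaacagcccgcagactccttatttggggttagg
Vegfa: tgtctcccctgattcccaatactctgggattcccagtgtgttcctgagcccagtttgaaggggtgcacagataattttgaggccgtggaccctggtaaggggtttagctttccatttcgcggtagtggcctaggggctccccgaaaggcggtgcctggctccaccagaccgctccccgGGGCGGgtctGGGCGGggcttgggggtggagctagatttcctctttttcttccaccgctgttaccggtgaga
The Pdgfc window had 1 match to GGAATG, 137 to 132 bases before the start, and no match to the other 3 motifs. The Vegfa window had 2 matches to GGGCGG, 72 to 67 and 62 to 57 bases before the start, and none to the others. No matches overlapped in these 2 windows, and CACGTG was in none of the 6 windows. Of 32851 windows of this length from all genes, 6.02% held CACGTG, 32.7% GGGCGG, 12.4% TATAAA and 12.6% GGAATG. Of these bases of the Pdgfc window 50.8% were G or C, against 59.2% for Vegfa and a median of 52.4% over all windows. A match is a string of letters and does not show binding.

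Angpt1 (chromosome 15, 42424667 to 42676977) was far above the dim limit on all 4 arrays. Its probe set 1439066_at had 12.11 and 12.27 in Hi, and 12.62 and 12.58 in Lo, with both Hi arrays below both Lo arrays. The difference was -0.41 ± 0.14 (SE), 1.33-fold lower in Hi. By 1421441_at it had 10.44 and 10.42 in Hi, and 10.26 and 10.61 in Lo, where the Lo arrays enclosed the Hi arrays and the means were both 10.43. The 2 probe sets thus did not give the same difference, and their mean gave -0.21.

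Vegfa (chromosome 17, 46016993 to 46032377) was the one member over the dim limit with higher values in Hi by both of its probe sets. By 1420909_at it had 7.18 on both Hi arrays, and 6.82 and 6.96 in Lo, a difference of 0.29 ± 0.14 (SE), 1.22-fold higher in Hi. By 1451959_a_at it had 6.24 and 5.90 in Hi, and 5.82 and 5.36 in Lo, with a difference of 0.48 ± 0.24 and a gap of 0.08 between the nearest arrays. Vegfa stood at number 3979 from the highest of all genes.

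**Figure D3:**
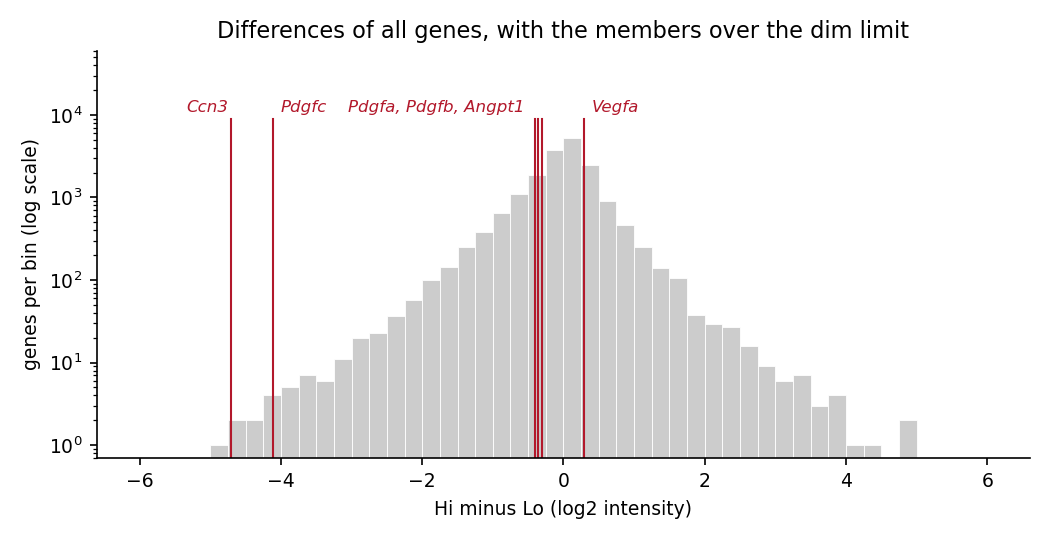
Number of genes per bin of 0.25 in the difference of Hi minus Lo (log2 intensity, 18193 genes, log-scaled vertical axis), with red lines at the 6 member genes over the dim limit on at least 2 arrays. Ccn3 (-4.70) and Pdgfc (-4.11) lie at the far lower end, and the other 4 lie between -0.41 and 0.29, where most genes lie.

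Genes with the pattern nearest to that of Ccn3 were listed from the same Hi and Lo values that chose the members, so the size of the difference largely fixes which genes are near. When each gene's 4 values were set relative to their own mean, Pdgfc lay nearest among 12802 genes over the dim limit on at least 2 arrays, at a Euclidean distance of 0.74. Next came Runx1t1, a transcriptional corepressor, at 0.83 and Plekhg1 at 1.02. Runx1t1 had 3.50 and 3.64 in Hi, and 8.26 and 8.07 in Lo. Plekhg1 had 2.81 and 4.0 in Hi, and 8.32 and 8.11 in Lo. For Vegfa the nearest were Wdr5b, Snx5 and Tmem208, each at 0.02, which reflects how many genes have small differences. A likeness over 4 arrays is a description of these arrays.

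Receptors of these ligands were measured next, in a fit across all probe sets. This list and the later gene lists were drawn up with earlier results of these data known. Their p-values and calls are therefore not independent of how the genes were picked. Of 45037 probe sets, limma called 0 (0%) as higher and 0 (0%) as lower with a threshold of 0.05 for the adjusted p, the smallest of which was 0.0839. In simulated data this fit called 0 of 50 probe sets with a 2-fold change and 1 of 50 with a 4-fold change. A gene that did not pass, here and below, may therefore still differ. With no adjustment 9.05% had a p under 0.05 and higher values in Hi, and 8.91% a p under 0.05 and lower values. Counted by genes, each by its probe set with the highest mean, 1682 of 18193 had such a p with higher and 2001 with lower values in Hi. The gene lists, here and below, are counted by genes in the same way. All 10 receptor and co-receptor genes were measured, 8 of them over the dim limit on at least 2 arrays. By limma 0 passed in either direction, and before adjustment 1 had a p under 0.05 with higher and 3 with lower values in Hi; the median difference was -0.09, with -0.31 without Lo R1, 0.03 without Lo R2 and -0.40 over the genes above the dim limit.

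Tek, the angiopoietin-1 receptor, had 8.64 and 8.71 in Hi, and 10.33 and 10.47 in Lo. Both Hi arrays were well below both Lo arrays, with a difference of -1.73 ± 0.14 (SE), 3.31-fold, and a limma adjusted p of 0.0839. Tie1, the orphan partner of Tek, had 9.18 and 9.05 in Hi, and 10.30 and 10.59 in Lo, a difference of -1.33 ± 0.17 with an adjusted p of 0.0956. The difference of the ligand gene Angpt1 stands above, at -0.41, and the ligand and receptor genes were not tested against each other. Pdgfrb, the receptor of PDGF-B and PDGF-D, had 9.91 and 9.90 in Hi, and 9.46 and 10.18 in Lo, so the Lo arrays enclosed the Hi arrays. Pdgfra, the receptor that PDGF-A and PDGF-C activate, is named for its ligands after its values were seen. It was dim on all 4 arrays, with 4.16 and 4.30 in Hi, and 4.03 and 4.24 in Lo.

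The VEGF receptors and their co-receptor had differences of either sign. They are named after their values were seen. Flt1 had 5.39 and 5.42 in Hi, and 4.81 and 3.99 in Lo, with a difference of 1.0 ± 0.32 (SE) and a limma adjusted p of 0.237. It was dim on Lo R2, so the size of this difference rests partly on a value under the limit. Kdr had 5.79 and 5.00 in Hi, and 6.23 and 5.86 in Lo, a difference of -0.65 ± 0.34 with an adjusted p of 0.409. The co-receptor gene Nrp2 had 4.70 and 5.16 in Hi, and 6.08 and 5.75 in Lo, a difference of -0.99 ± 0.24 with an adjusted p of 0.172. Of the other Nrp2 probe sets, 1 over the dim limit on all 4 arrays differed by 0.27, and the mean over the Nrp2 probe sets gave -0.39. None of these 3 genes passed. Further probe sets of Flt1 were dim on at least 3 of the 4 arrays.

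Of 8 other ligands of the PDGF, VEGF, angiopoietin and CCN families, 5 were over the dim limit on at least 2 arrays. By limma 0 passed, and before adjustment 1 had a p under 0.05 with higher and 3 with lower values in Hi; the median difference was 0.02, with 0.11 without Hi R1, -0.09 without Hi R2 and -0.08 without Lo R2. Pdgfd, the relative of Pdgfc that also carries a CUB domain, had 6.82 and 5.93 in Hi, and 9.41 and 9.05 in Lo. The groups were 2.22 apart, with a difference of -2.85 ± 0.36 (SE), 7.20-fold, and an adjusted p of 0.0956. Ccn6, a sixth member of the CCN family, was dim on all 4 arrays, with 3.16 and 3.38 in Hi, and 3.78 and 3.92 in Lo. Vegfb had 9.19 and 8.85 in Hi, and 8.73 and 8.42 in Lo, a difference of 0.44 ± 0.21 with an adjusted p of 0.376. Vegfc, chosen after its values were seen, differed by -1.29 ± 0.38, and its other 2 probe sets by -1.40 and -1.52, with an adjusted p of 0.214 for the first.

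Calls differed when genes were fitted in place of probe sets. In a fit over 1 probe set a gene, added after the data were seen, Tek (adjusted p = 0.0385), Tie1 and Pdgfd (adjusted p = 0.0495 each) were called lower in Hi by limma, where 1.18% of 18193 genes were called lower. In a fit over the average of each gene's probe sets the same 3 were called lower, at adjusted p = 0.0313, 0.0399 and 0.0485, where 1.52% were called lower. The difference of Pdgfd was -1.42 by that average. Its other 2 probe sets, dim on all 4 arrays, had differences of -1.38 and -0.05. In both of these fits 0 genes of the 5 pathway lists were called higher.

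Of the angiopoietin-like genes, secreted relatives of the angiopoietins that do not bind Tie2, 4 of 6 were measured and 3 were over the dim limit. By limma 0 passed, and before adjustment 1 had a p under 0.05 with higher and 1 with lower values in Hi; the median difference was -0.12, or 0.13 without Hi R1 and -0.37 without Hi R2. Angptl4, an inhibitor of lipoprotein lipase, had 9.58 and 9.59 in Hi, and 7.75 and 8.30 in Lo, a difference of 1.56 ± 0.23 (SE) with an adjusted p of 0.105. Angptl7 had 8.48 and 8.88 in Hi, and 9.83 and 9.57 in Lo, a difference of -1.02 ± 0.21 with an adjusted p of 0.146. By these probe sets the 2 genes lay on opposite sides. The second probe set of Angptl4, given further below, had the other sign, and the mean over its probe sets gave a difference of 0.

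Integrin subunits and LRP receptors to which CCN proteins bind were all measured, 10 of 10, and all were over the dim limit on at least 2 arrays. By limma 0 passed, and before adjustment 0 had a p under 0.05 with higher and 2 with lower values in Hi; the median difference was -0.31, or -0.52 without Lo R2, with 2 genes above 0 and 8 below, where 53.6% of all genes were above 0 and 46.4% below. Itgb2, the beta subunit of leukocyte integrins, differed by -0.63 ± 0.17 (SE) with an adjusted p of 0.191. Itgb5, a partner of the alpha-v subunit, differed by -1.16 ± 0.34 with an adjusted p of 0.213, and its other 3 probe sets by -1.24 to -1.58. Itga6, a laminin receptor subunit, had 11.64 and 11.49 in Hi, and 12.22 and 11.85 in Lo, a difference of -0.47 ± 0.19 with an adjusted p of 0.317.

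Genes that regulate Ccn1 and Ccn2 in other cells, those of the Hippo pathway with the TEAD factors, SRF and its cofactors, were measured in 19 of 20 cases, 16 of them over the dim limit. By limma 0 passed, and before adjustment 0 had a p under 0.05 with higher and 3 with lower values in Hi. The median difference was -0.04, or -0.22 without Hi R1 and -0.20 without Lo R2. In this list 6 genes were above 0 and 13 below, where 53.6% of all genes were above 0 and 46.4% below. With the arrays shifted to 1 median this median was 0.06. Wwtr1, which encodes the YAP relative TAZ, had 5.37 and 2.96 in Hi, and 8.24 and 6.85 in Lo. The groups did not overlap, yet the Hi arrays were far apart, and the difference of -3.38 ± 1.0 (SE) had an adjusted p of 0.219. Hi R2 was dim for this probe set, so the size of the difference rests partly on a value under the limit. Its other 2 probe sets were dim on all 4 arrays. Stk4, the Hippo kinase MST1, had 12.70 on both Hi arrays, and 13.12 and 13.09 in Lo, a difference of -0.40 ± 0.13 with an adjusted p of 0.243, while its other 2 probe sets differed by 0.20 and -0.24. Yap1, chosen after its values were seen, had 5.96 and 5.19 in Hi, and 7.98 and 6.02 in Lo, a difference of -1.43 ± 0.76 with an adjusted p of 0.417.

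**Figure D4:**
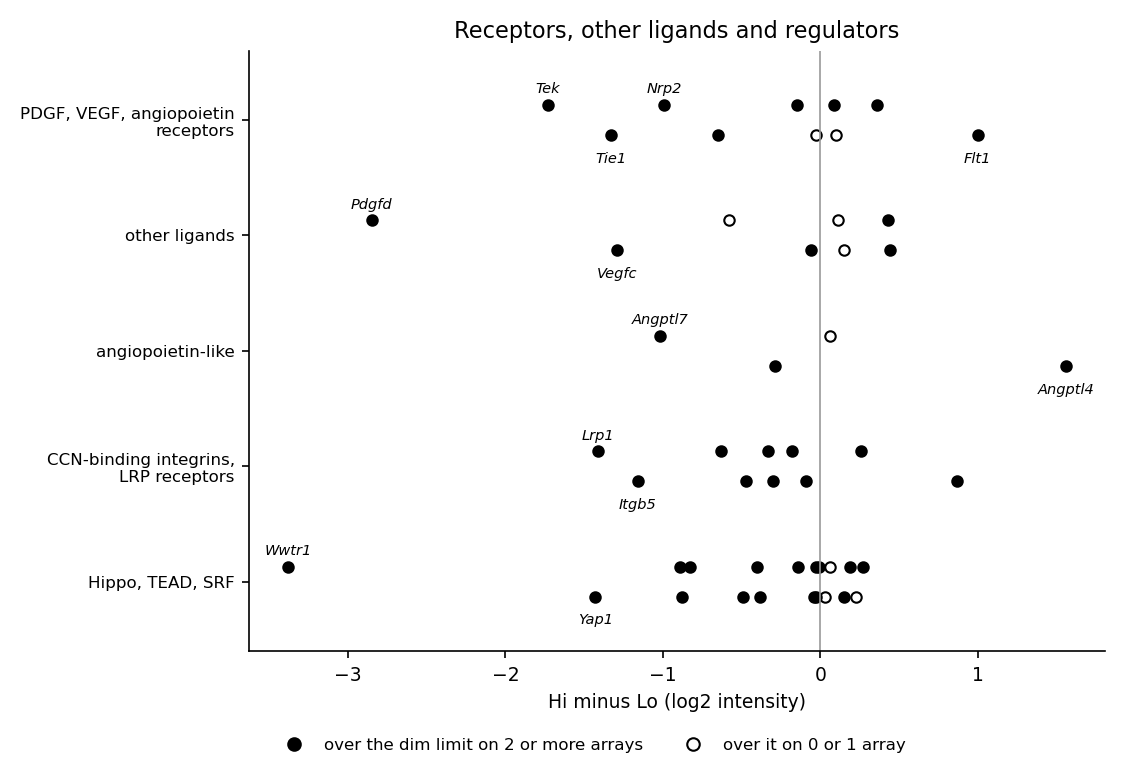
Difference of Hi minus Lo in log2 intensity for the 51 measured genes of the 5 lists, each by its probe set with the highest mean. Filled points are over the dim limit on at least 2 arrays, open points on 0 or 1, and genes more than 0.9 from 0 are named. By measured values Pdgfd (-2.85) and Wwtr1 (-3.38, dim on Hi R2) lie lowest, and Angptl4 (1.56) highest.

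Other markers moved with the groups, and their part in the differences of Ccn3 and Pdgfc was not tested. Of 9 LSK and stem cell markers 7 were measured, all over the dim limit, among them Cd34 with 12.87 and 12.92 in Hi, and 12.79 and 12.78 in Lo, and Flt3 with 12.30 and 12.50 in Hi, and 12.40 and 12.70 in Lo. Their linear intensities summed to 20839.8 and 22367.3 in Hi, against 30721.8 and 29820.3 in Lo. In such a sum, here and for the lists below, the brightest probe sets weigh most. Of the 7, 4 had both Hi arrays below both Lo arrays and 1, Cd34, had them above, where 22% and 29.3% of all probe sets did. The 4 are Procr, Slamf1, Hlf and Mecom, named after their values were seen, with differences of -2.00, -1.68, -1.15 and -0.96. Of 20 early response and dissociation stress genes, 14 had both Hi arrays below both Lo arrays, Fos and Jund among them with -0.49 and -0.50, and 2 lay above, against 22% and 29.3% of all probe sets. That list summed to 25640.1 and 29003.3 in Hi, against 46085.3 and 48445.3 in Lo, and Ccn1 and Ccn2, which belong to this class of genes in other cells, were dim throughout.

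Markers of cells that could carry PDGF or angiogenic factor transcripts into the sort were also read. Bulk values cannot tell such cells from LSK cells that hold the same transcripts, and the source of these signals was not tested. Of 10 endothelial markers, 9 were over the dim limit on at least 2 arrays, and Cdh5, the defining cadherin of endothelium, was dim on all 4. The list summed to 3749.2 and 3799.7 in Hi, and 4742.6 and 4850.3 in Lo, with Egfl7 differing by -0.03 and Emcn by -1.03. In this list 5 genes had both Hi arrays below both Lo arrays and 3, with the dim Cdh5 among them, had them above. Over all probe sets 22% lay below and 29.3% above. The widest differences, picked after their values were seen, were -2.38 for Cldn5, dim on both Hi arrays and over the limit on both Lo arrays, and 1.33 for Plvap. Of 10 markers of mesenchymal stroma, 6 were dim on all 4 arrays (Col3a1, Pdgfra, Lepr, Dcn, Lum and Kitl), and the list summed to 1252.2 and 1301 in Hi, and 1139.7 and 1765.4 in Lo, with 2 genes below, 1 above and 7 overlapping. Those below include the dim Col3a1, and the 1 above was the dim Dcn, where 22% of all probe sets lay below and 29.3% above. Of this list Pdgfrb is given above, and Col1a2 had 6.60 and 7.44 in Hi, and 8.23 and 8.69 in Lo. Megakaryocyte and platelet markers, known carriers of PDGF, summed to 6563 and 5534.2 in Hi, and 4133.4 and 4846.5 in Lo, with 6 of 7 measured genes over the dim limit, and Gp6 dim on all 4. Of these 7 genes 6 had a higher mean in Hi, 5 of them with both Hi arrays above both Lo arrays, among them Pf4 (0.64) and, named after its values were seen, Gp1bb (0.80), while Gp9 (-0.64) lay below. The 5 include the dim Gp6, and 29.3% of all probe sets lay above and 22% below. Lineage markers that the sort gates out summed to 828.7 and 705.2 in Hi, and 733.3 and 687.3 in Lo, with all 6 measured over the dim limit on at least 2 arrays, Cd4 differing by 0.35 and Cd79a by 0.16. These 2 had both Hi arrays above both Lo arrays, where 29.3% of all probe sets did, and 3 genes overlapped. Cd8a, named after its values were seen, had 5.62 and 5.44 in Hi, and 6.88 and 6.55 in Lo, a difference of -1.19. As a sign of RNA quality, the control probe sets at the 3′ end of Gapdh exceeded those at its 5′ end by 0.63 and 0.65 in Hi, against 0.74 and 0.78 in Lo, on the log2 scale. For Actb the same measure was 0.60 and 0.55 in Hi, against 0.84 and 0.57 in Lo, where the groups overlapped.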

How the data were processed

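For each of 4 arrays the authors deposited a linear intensity per probe set. Per the submitters' processing notes RMA was used; how it was run is not given in the sources used here. All deposited intensities (2.96 to 22121.7) were log2-transformed here with no offset, giving array medians of 5.70 to 5.82. Of 45101 probe sets 64 controls were left out. The platform annotation names 1 gene for 34945 probe sets, several for 932 and none for 9160; symbols follow Entrez identifiers in a RefSeq table of GRCm38.p6. A gene is represented by the probe set whose mean over the arrays is highest. Hi minus Lo was fitted over all probe sets with limma 3.58.1 in R 4.3.3 (2 residual and 1.98 prior degrees of freedom, no block, two-sided) and adjusted by Benjamini-Hochberg over 45037, and steps were tested on simulated data. There the fit called 0 of 50 2-fold, 1 of 50 4-fold and 36 of 50 16-fold changes, and 2 unchanged probe sets. The simulated spread did not depend on intensity, so these counts may not hold for probe sets near the dim limit. In the real data 0 probe sets were called, though 9 genes had a measured difference at or under -4. The dim limit came from 27 silent bacterial control probe sets. Promoter motifs were counted with Python 3.11.15. The members and gene lists were chosen with earlier results of these data known. Named were all members and, of each pathway list, genes that passed or the 2 with the smallest p, and the brightest, with the 2 brightest of each marker list and the 3 genes most like the members with the lowest and highest difference. Some further genes are named and marked as chosen after their values were seen. Markers that were dim on all 4 arrays, such as Cdh5 and Gp6, are also named, without that mark. Alternatives tried were an array median shift, cyclic loess, an offset of 16, a dim filter, a replicate block, other moderation, the mean of probe sets and leaving out each array.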

Additional observations from a re-analysis of the deposited data

How the results depend on the processing

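The differences of Ccn3 (-5.38 to -4.03) and Pdgfc (-4.54 to -3.52), of Angpt1 (-0.49 to -0.21) and of Vegfa (0.22 to 0.38) kept their sign under all 9 alternatives. Those of Ccn1, Ccn2, Ccn4, Ccn5, Pdgfa and Pdgfb did not: Ccn1 was -0.05 by the mean of its probe sets, Ccn2 0.09 without Hi R1, Ccn4 0.11 without Lo R1 and Ccn5 -0.16 without Lo R2. The median over the 10 genes ran from -0.32 to 0.04. With 1 array left out, 7 to 10 member probe sets had Hi below Lo and 5 to 8 had Hi above Lo, against 6 and 5 with all arrays; fewer arrays leave fewer chances to overlap. Over all probe sets limma made no call under the other normalizations, the offset, the dim filter, an intensity trend or with any array left out, while an unmoderated test gave 0 calls for higher and 1 for lower. Fits over genes called 252 higher and 276 lower by the mean of probe sets, and 190 higher and 214 lower by 1 probe set a gene, with 3 pathway genes lower in each; these fits change both the number of features (18193 in place of 45037) and which probe sets enter, while the dim filter alone (27544 probe sets) left 0 calls, and the cause was not tested. Medians of 4 pathway lists changed sign under some alternative, and that of the integrin and LRP list stayed between -0.52 and -0.18. Shifting arrays to 1 median moved the median of all probe sets to 0.14, against 0.04, and that of the Hippo list to 0.06. R1 and R2 share only a number across groups (their deviations correlated at 0.07 over probe sets), and with a replicate block the calls were 0 higher and 0 lower and the median over the 10 genes -0.28. With 2 arrays a group the precision is limited by their number, and at the dim limit a level has only an upper bound.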

Other observations

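Probe sets of 1 gene differed in sign for some genes of the pathway lists, beyond the values given above. A second probe set of Angptl4, over the dim limit only on Lo R2 with 5.65, had a difference of -1.56, against 1.56 for the first one. Nrp1, a co-receptor of VEGF-A, differed by -0.15 by 1 probe set and by 1.08 by another that had 8.13 and 7.35 in Hi, and 6.81 and 6.50 in Lo. The second probe set of Yap1 was dim on all 4 arrays. Besides the members, Pgf, the placental relative of VEGF-A, had 6.11 and 6.31 in Hi, and 5.76 and 5.81 in Lo, with a difference of 0.43 ± 0.15 (SE) and a limma adjusted p of 0.268. These genes were chosen after their values were seen.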
